A study of Mus musculus with 22 samples.

Results

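The genes described here encode the subunits, activators, inhibitor and dedicated assembly factors of the proteasome, measured as transcripts in whole mouse liver. They were chosen by name alone, as the protein-coding genes whose symbol starts with Psma, Psmb, Psmc, Psmd, Psme, Psmf or Psmg and goes on with a digit, and 49 of the 15448 genes of the count table met that rule. Psmc3ip met it by spelling only. It encodes a cofactor of meiotic recombination, was near the floor of detection at 0.393 ± 0.141 CPM in C26-TDCA, 0.358 ± 0.203 CPM in C26 and 0.319 ± 0.180 CPM in CT livers (SD, n = 8, 8 and 6), and is left out of the counts below. The other 48 are 15 genes of the core particle, the 3 immunoproteasome subunits, 17 genes of the 19S regulatory particle, 6 activators or inhibitors and 7 assembly factors. All 48 passed the filter on low counts.

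The livers came from 22 male CD2F1 mice labelled as wild type, in 3 groups. The C26-TDCA group (n = 8) carried the mouse colon carcinoma C26 and was given 10 mg/kg of taurodeoxycholic acid (TDCA), the taurine conjugate of a bile acid made by gut bacteria, into the peritoneum every day. The C26 group (n = 8) carried the tumour and had no TDCA, and the control group (CT, n = 6) had a sham injection and is labelled as vehicle. C26 is a transplanted line used as a model of cachexia, the wasting that accompanies cancer. TDCA was not given to mice without a tumour, and the age of the mice, the site and size of the tumour and the day of sampling are not stated in the sources used here.

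The proteasome is the protease that degrades most ubiquitin-tagged proteins. Its barrel-shaped core, the 20S particle, is a stack of rings of alpha subunits (Psma genes) and beta subunits (Psmb genes), and 3 of the beta subunits cut peptide bonds: Psmb6, Psmb7 and Psmb5. The 19S regulatory particle, which caps the barrel, binds ubiquitin chains, removes them, and unfolds the substrate with a ring of ATPases (Psmc genes). In cells exposed to interferon-gamma, Psmb9, Psmb10 and Psmb8 are built in instead of Psmb6, Psmb7 and Psmb5 and give the immunoproteasome, whose peptides are well suited to MHC class I. Other caps open the core without ubiquitin: PA28 alpha and beta (Psme1 and Psme2), PA28 gamma (Psme3) and PA200 (Psme4).

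The stretches of genome around the annotated starts of the interferon-inducible members and of Psme4, the member with the largest fall in C26 livers, are shown because the results below turn on these genes. Each runs from 250 bases before the RefSeq start to 50 after it, in GRCm38.p6 coordinates, and is credited to RefSeq. Gene coordinates given further on are the outer ends in GENCODE, whose starts differ from those of RefSeq for some genes, and the windows of Psmb8, Psmb9 and Psme1 lie within them. Such windows were found for 41 of the 49 members (44 windows). Capitals mark matches on either strand to GAAANNGAAA (an interferon regulatory factor element), TTCNNNGAA (a gamma-activated site), TGACNNNGC (an antioxidant response element) or CCAAT.
Psmb8 (chr17:34197945-34198244, plus strand): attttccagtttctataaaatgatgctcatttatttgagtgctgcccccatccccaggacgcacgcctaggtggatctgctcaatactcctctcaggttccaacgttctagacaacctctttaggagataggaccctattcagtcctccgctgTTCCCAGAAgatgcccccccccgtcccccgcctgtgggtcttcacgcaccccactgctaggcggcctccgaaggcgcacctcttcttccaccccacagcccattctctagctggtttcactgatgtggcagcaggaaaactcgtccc
Psmb9 (chr17:34187281-34187580, minus strand): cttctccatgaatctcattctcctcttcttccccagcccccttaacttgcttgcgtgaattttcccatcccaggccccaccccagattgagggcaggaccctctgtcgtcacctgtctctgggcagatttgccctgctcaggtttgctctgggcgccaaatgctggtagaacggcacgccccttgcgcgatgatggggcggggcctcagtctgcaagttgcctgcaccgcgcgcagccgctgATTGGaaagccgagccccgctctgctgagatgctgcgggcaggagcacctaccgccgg
Psmb10 (chr8:105938343-105938642, minus strand): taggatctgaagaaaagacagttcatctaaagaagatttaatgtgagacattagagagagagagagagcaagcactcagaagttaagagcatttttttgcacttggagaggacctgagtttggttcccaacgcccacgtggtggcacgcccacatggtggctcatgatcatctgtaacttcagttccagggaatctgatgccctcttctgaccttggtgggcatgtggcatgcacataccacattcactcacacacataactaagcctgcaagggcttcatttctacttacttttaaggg
Psme1 (chr14:55578244-55578543, plus strand): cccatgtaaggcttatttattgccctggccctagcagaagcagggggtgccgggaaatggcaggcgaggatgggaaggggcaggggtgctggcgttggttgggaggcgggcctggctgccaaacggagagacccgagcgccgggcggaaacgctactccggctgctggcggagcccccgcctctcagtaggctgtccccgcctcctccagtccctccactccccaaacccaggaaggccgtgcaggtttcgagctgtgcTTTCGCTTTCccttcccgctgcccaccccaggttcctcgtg
Psme2 (chr14:55591052-55591351, minus strand): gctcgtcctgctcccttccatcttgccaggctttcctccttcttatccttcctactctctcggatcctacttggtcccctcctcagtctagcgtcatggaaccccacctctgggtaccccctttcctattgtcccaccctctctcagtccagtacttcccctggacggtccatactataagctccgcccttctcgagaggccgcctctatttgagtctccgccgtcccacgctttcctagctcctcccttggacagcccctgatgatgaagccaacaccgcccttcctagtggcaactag
Psme4 (chr11:30771525-30771824, plus strand): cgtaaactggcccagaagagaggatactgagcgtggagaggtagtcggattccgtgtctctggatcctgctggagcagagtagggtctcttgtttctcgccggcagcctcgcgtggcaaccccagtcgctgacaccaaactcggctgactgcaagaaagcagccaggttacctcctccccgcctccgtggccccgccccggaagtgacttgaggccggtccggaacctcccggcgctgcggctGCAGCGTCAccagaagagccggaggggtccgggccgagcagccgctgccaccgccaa
GAAANNGAAA was in 5 of the 44 member windows (11.4%), those of Psmb3, Psmd4, Psmd9, Psme1 and Psmg4, and in 3.44% of all 32851 windows. TTCNNNGAA was in 3 member windows (6.82%), those of Psmb8, Psmd2 and Psmg1, and in 8.3% of all windows. TGACNNNGC was in 6 member windows (13.6%), those of Psmb5, Psmb6, Psmc6, Psmd12, Psmd9 and Psme4, and in 12.4% of all windows. CCAAT was in 14 (31.8%) and in 37.4% of all windows. Among the windows printed, Psmb10 and Psme2 hold none of these letters. The matches are a description of letters, with no test, and no binding was measured.

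Depth was 20.5 to 28.3 M counts for C26-TDCA, 17.5 to 28.1 M for C26 and 16.5 to 25.3 M for CT, and 3 counts came to 0.18 CPM (counts per 1e6) at the lowest depth and 0.11 CPM at the highest. The first principal component of all genes held 60.7% of the variance and put every CT library apart from every tumour-bearing one, at -46.6 to -22.7 in C26-TDCA, -51.5 to -4.01 in C26 and 85.0 to 92.7 in CT. Scaling factors by TMM, the trimmed mean of M values, ran from 0.890 to 1.005 in C26-TDCA, 0.878 to 0.982 in C26 and 1.154 to 1.204 in CT, so the choice of scale moves every comparison with CT. In C26 against CT livers, 3 of 6 hepatocyte markers fell and 1 rose, while 6 of 6 Kupffer cell, 5 of 6 neutrophil and monocyte, 5 of 6 sinusoidal endothelial, 2 of 5 cholangiocyte and 3 of 5 stellate cell markers rose. The summed hepatocyte markers ranged from 23719 to 30760 CPM in C26-TDCA and 21295 to 31986 CPM in C26, against 54343 to 62976 CPM in CT. Alb, the gene of albumin, was at 10908 CPM or more in every C26-TDCA library, 10471 CPM or more in every C26 library and 38896 CPM or more in every CT library.

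Summed over all classes, proteasome transcripts stood at overlapping levels in the 3 groups when libraries were scaled by TMM, and the genes that changed differed by class. The 48 genes summed to 2279 ± 144 CPM in C26-TDCA, 2370 ± 189 CPM in C26 and 2444 ± 94.7 CPM in CT (SD, n = 8, 8 and 6), and the 3 groups overlapped. On the raw scale, the same genes took 0.217 ± 0.00946% of all counts in C26-TDCA, 0.220 ± 0.0138% in C26 and 0.288 ± 0.0103% in CT. There every tumour-bearing library, at 0.237% or less in C26-TDCA and 0.239% or less in C26, lay below every CT library, at 0.278% or more. On that scale of library totals the median gene of the whole table also differed, by -0.34 (log2) in C26 and -0.30 in C26-TDCA against CT, where on the TMM scale it differed by -0.0031 and 0.01; changes below are on the TMM scale unless library totals are named. In bulk tissue, fewer cells of a type and less RNA per cell cannot be told apart.

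**Figure D1:**
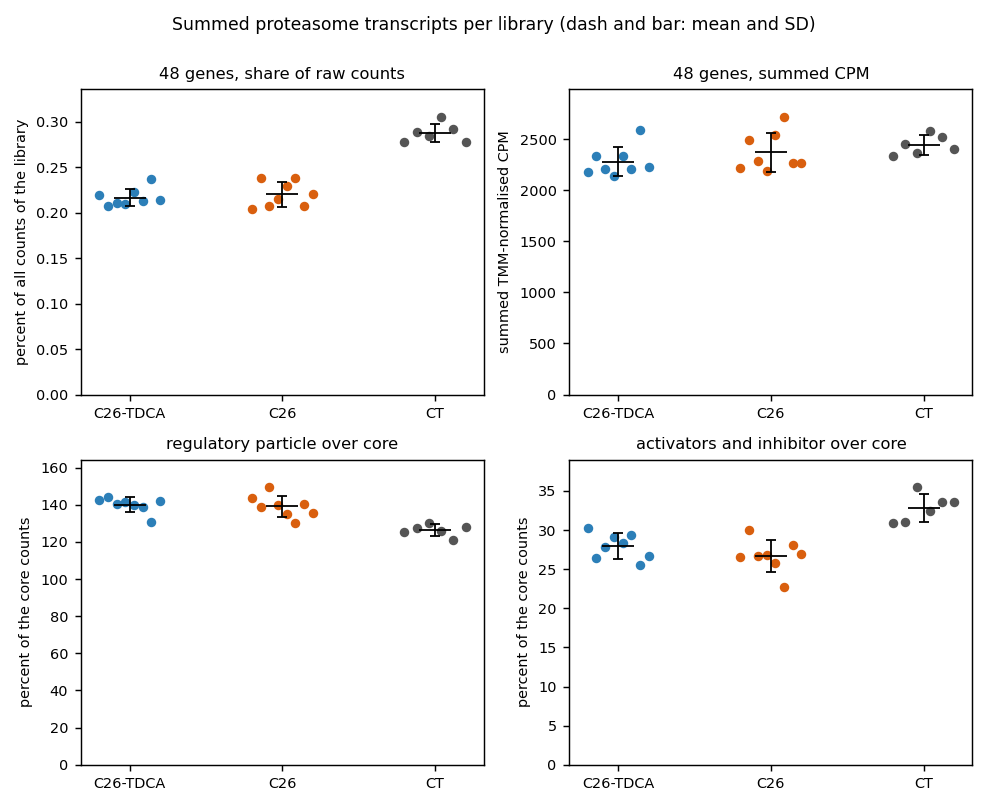
Summed proteasome transcripts in each of 22 libraries: share of raw counts (percent), summed TMM-normalised CPM, and counts of the regulatory particle genes and of the activators and inhibitor as a percentage of core counts. Points are libraries and bars the mean and SD; CT lies above both tumour-bearing groups for the share of counts and for the activators over core, below nearly all of them for the regulatory particle over core, and among them for the summed CPM.

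Ratios between classes within a library do not depend on the scale. Regulatory particle counts were 131 to 144% of core counts in C26-TDCA (median 141%), 130 to 149% in C26 (median 139%) and 121 to 130% in CT (median 127%). Only C26 06, at 130.3%, lay below the highest CT library, CT 05 at 130.4%. Activator and inhibitor counts were 25.5 to 30.3% of core counts in C26-TDCA and 22.8 to 30.0% in C26, against 30.9 to 35.5% in CT, with no overlap between tumour-bearing and CT libraries. Assembly factor counts were 9.69 to 10.4% of core counts in C26-TDCA and 9.45 to 11.4% in C26, against 11.0 to 11.6% in CT, and overlapped with CT in C26 only. Immunoproteasome counts were 3.55 to 6.04% of core counts in C26-TDCA, 4.60 to 6.23% in C26 and 5.63 to 7.13% in CT, and all 3 groups overlapped. These ratios are sums over genes of different length and are given without a test.

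In C26 against CT livers, 16 of the 48 genes passed the test, which was edgeR's quasi-likelihood test at an adjusted p (Benjamini-Hochberg, over all 14785 genes tested) of 0.05. That is 33.3% of the members, against 58.1% of all genes tested (28.9% higher and 29.2% lower). On the TMM scale 3 rose, Psmd7, Psmc4 and Psmd13, all in the regulatory particle, and 13 fell, none of them in it. This split by class changed with the setting. Upper-quartile scaling put the split at 7 higher and 9 lower, removal of the length and GC trend at 7 and 15, and scaling by library totals at 0 and 42. Of all genes tested, these settings called 8597 of 14785, 8863 of 14775 and 10164 of 14785 in the same order. The median log2 fold change of the 48 was -0.02, its size had a median of 0.13, and single genes ran from -0.57 to 0.44. Over all genes tested the median size was 0.40. With the length and GC trend removed, Psmd2 and Psmd3 of the regulatory particle were called lower (-0.17 each). The core genes Psma1 and Psma4 (0.14 and 0.22) and the assembly factor Psmd10 (0.27) were called higher in that setting. Upper-quartile scaling also called Psma4 higher (0.19).

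In C26-TDCA against CT livers, 2 genes rose and 20 fell (45.8%), where 57.0% of all genes tested were called (28.7% higher and 28.2% lower). The median log2 fold change was -0.09 and the range -0.71 to 0.43, where the median over all genes tested was 0.01. Upper-quartile scaling gave 5 higher and 17 lower, and library totals 0 higher and 42 lower. Of all 14785 genes tested, these 2 settings called 8420 and 9820. Both comparisons use the same CT libraries and are not independent. In C26-TDCA against C26 livers, edgeR called 0 of the 48 genes, where 1.97% of all genes tested were called (1.73% higher and 0.237% lower). DESeq2 also called 0 of the 48 there, and 551 of all 15448 genes. With edgeR 6 of the 48 had an unadjusted p under 0.05, beside 2335 of all 14785 genes tested. The smallest adjusted p, that of Psmg2, was 0.159 with edgeR. The point estimates were below 0 for 40 of the 48, with a median of -0.07, where the median of all genes tested was -0.01. These estimates come from the same libraries and are not independent. Single libraries led in both groups, C26 06 for 30 of the 48 genes and C26-TDCA 07 for 32.

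**Figure D2:**
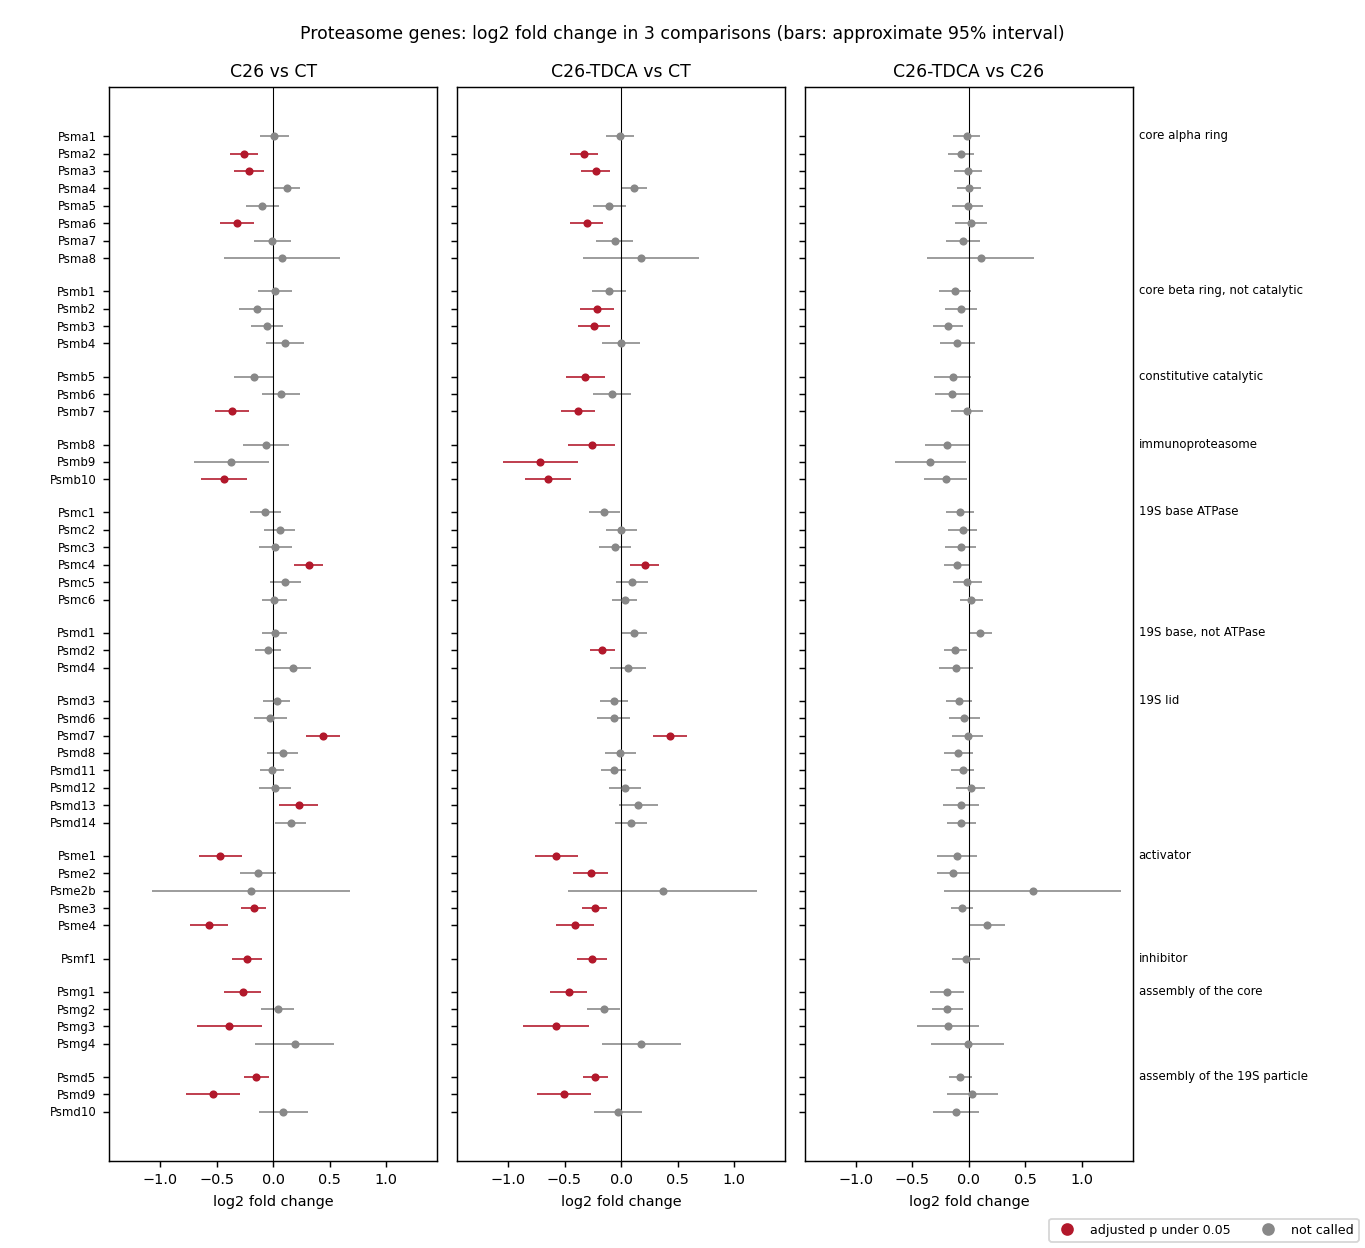
Log2 fold change of each of the 48 proteasome genes (points) with its approximate 95% interval (bars) in C26 against CT, C26-TDCA against CT and C26-TDCA against C26, in the order of the classes. In C26 against CT the 3 called genes to the right of 0 are Psmc4, Psmd7 and Psmd13; no gene is called in C26-TDCA against C26.

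The core particle was measured through 15 genes. Psma8, a testis form of Psma7, was at 1.21 ± 0.343 CPM in C26-TDCA, 1.12 ± 0.462 CPM in C26 and 1.06 ± 0.201 CPM in CT (SD, n = 8, 8 and 6). The 14 ubiquitous subunits stand in equal number in the barrel, but their transcripts did not stand at equal levels. Per kb of the longest annotated transcript, CT means ran from 16.9 CPM for Psmb7 to 77.9 CPM for Psma4, a range of 4.60-fold with a median of 43.7 CPM; with the principal transcript they ran from 17.5 CPM for Psma2 to 86.8 CPM for Psma7.

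On the TMM scale 4 core genes fell in C26 against CT livers, Psma2, Psma3 and Psma6 of the alpha ring and the catalytic Psmb7, and 0 rose. That is 26.7% of the class, beside 58.1% of all genes tested (29.2% lower). Psmb7, the trypsin-like subunit, encoded at chr2:38588036-38644087 (GRCm38), was at 31.4 to 42.8 CPM in C26-TDCA (median 37.2), 32.8 to 42.8 CPM in C26 (median 35.3) and 43.1 to 52.0 CPM in CT (median 49.1). All tumour-bearing livers were below all CT livers. The log2 fold change was -0.36 ± 0.08 (SE) in C26 against CT (edgeR, adjusted p = 0.000285) and -0.38 ± 0.08 in C26-TDCA against CT (adjusted p = 0.000167). Psmb7 shares 405 exon bases with Nek6 on the opposite strand, which rose by 1.21, so reads of the pair could be mixed if the counting ignored strand.

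Psma6 was at 53.8 to 68.2 CPM in C26-TDCA (median 56.8), 51.5 to 73.7 CPM in C26 (median 53.0) and 68.8 to 77.2 CPM in CT (median 71.0). The C26-TDCA livers were all below CT, and 1 C26 liver reached the CT range. It fell by 0.32 in C26 against CT (adjusted p = 0.000784) and by 0.30 in C26-TDCA against CT (adjusted p = 0.00137). Psma2, also of the alpha ring, was at 37.2 to 48.6 CPM in C26-TDCA (median 39.2), 39.1 to 48.7 CPM in C26 (median 41.9) and 48.5 to 53.8 CPM in CT (median 50.6). The top library of each tumour-bearing group just reached the CT range. It fell by 0.33 in C26-TDCA (adjusted p = 0.000104) and by 0.26 in C26 (adjusted p = 0.00127), both against CT, and the call in C26 was lost once the length and GC trend was removed. Psma3 fell by 0.22 in C26 (adjusted p = 0.00768), a call lost with that trend removed and with upper-quartile scaling. Psma4 had the highest log2 fold change of the core, 0.12 (adjusted p = 0.0909), at 89.8 to 106.9 CPM in C26-TDCA (median 97.8), 90.4 to 113.5 CPM in C26 (median 96.4) and 82.2 to 95.7 CPM in CT (median 91.0), and the groups overlapped. Psma1, Psma5 and Psma7 were not called either, with log2 fold changes of -0.10 to 0.01. Other settings did call rises in this ring. Upper-quartile scaling called Psma4 higher in C26 (0.19) and in C26-TDCA (0.16), both against CT. Removal of the length and GC trend did so as well (0.22 and 0.17), and it called Psma1 higher in C26 against CT (0.14).

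Of the beta ring, Psmb1, Psmb2, Psmb3 and Psmb4, which line the barrel without an active site, were not called in C26 against CT. Voom with quality weights did call Psmb2 lower there (-0.17, adjusted p = 0.0446). In C26-TDCA against CT, Psmb2 and Psmb3 fell by 0.21 and 0.24 (adjusted p = 0.0235 and 0.00686). Psmb2 lost its call without CT 02, with upper-quartile scaling and with the replicate number as a block. Psmb5, the chymotrypsin-like subunit and the main target of proteasome inhibitors, was at 22.8 to 31.1 CPM in C26-TDCA (median 27.3), 24.2 to 37.6 CPM in C26 (median 29.9) and 31.6 to 36.5 CPM in CT (median 33.1). The C26-TDCA livers were all below CT and the C26 livers straddled it. The log2 fold change was -0.31 ± 0.09 in C26-TDCA against CT (adjusted p = 0.00435) and -0.17 ± 0.09 in C26 against CT (adjusted p = 0.109). Voom with quality weights did call the second difference (-0.21, adjusted p = 0.0272). So did edgeR with the length and GC trend removed (-0.22, adjusted p = 0.0152). Psmb6, the caspase-like subunit, was at 59.8 to 79.4 CPM in C26-TDCA (median 62.2), 60.5 to 93.6 CPM in C26 (median 66.2) and 59.9 to 71.1 CPM in CT (median 69.1), with all groups overlapping and no call.

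**Figure D3:**
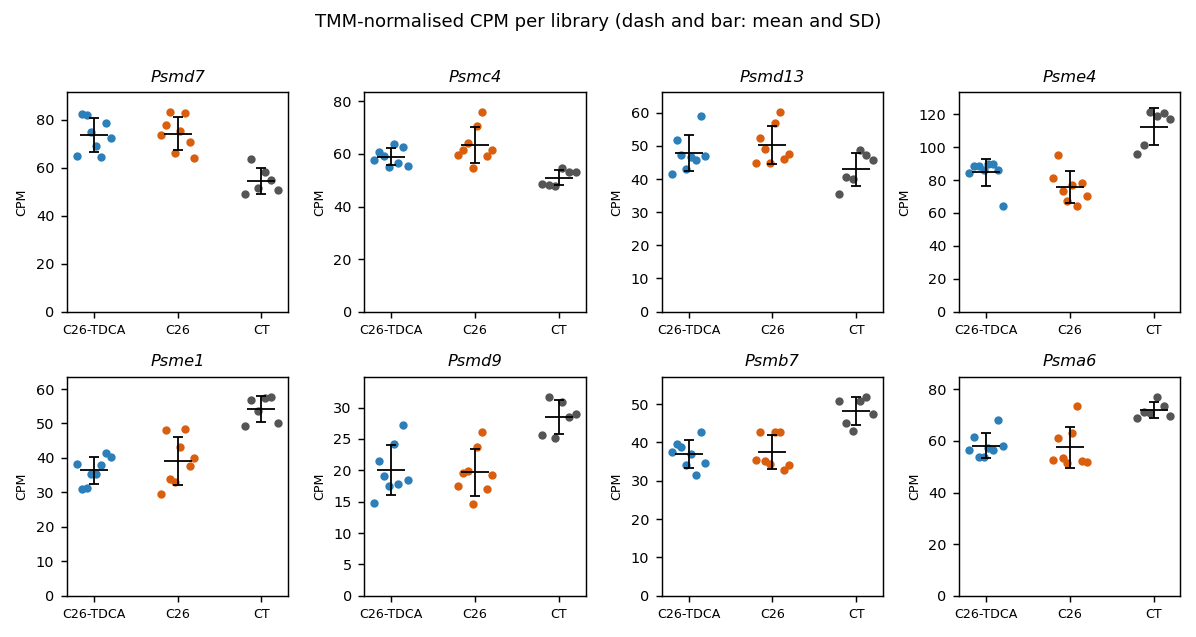
TMM-normalised CPM (axes from 0) of 8 called genes in C26-TDCA, C26 and CT livers, with points for libraries and bars for mean and SD. Psmd7 is the gene whose tumour-bearing livers lie above all CT livers; Psme4, Psme1 and Psmb7 lie below all CT livers.

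Of the 3 immunoproteasome subunits, Psmb10 fell in C26 against CT livers, all 3 fell in C26-TDCA against CT livers, and 0 rose in either comparison. Of all genes tested, 29.2% fell in C26 and 28.2% in C26-TDCA, both against CT. Per kb of the longest transcript, their CT means ran from 5.27 CPM (Psmb9) to 17.0 CPM (Psmb10), against a core median of 43.7 CPM. Psmb10 (chr8:105935735-105938444), which replaces Psmb7, was at 11.3 to 17.6 CPM in C26-TDCA (median 14.1), 12.2 to 21.1 CPM in C26 (median 16.6) and 19.7 to 25.3 CPM in CT (median 21.7). Every C26-TDCA liver was below every CT liver, and C26 livers overlapped with CT at the top. The log2 fold change was -0.44 ± 0.10 in C26 against CT (adjusted p = 0.000931) and -0.64 ± 0.10 in C26-TDCA against CT (adjusted p = 1.12e-05).

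Psmb9 (chr17:34181987-34187764, beside Psmb8 in the MHC), which replaces Psmb6, was at 5.16 to 12.3 CPM in C26-TDCA (median 9.19), 8.48 to 15.0 CPM in C26 (median 11.9) and 11.8 to 20.2 CPM in CT (median 15.3). The groups overlapped, with C26 between the other 2. It fell by 0.71 in C26-TDCA against CT (SE 0.17, adjusted p = 0.000871), while in C26 against CT the log2 fold change was -0.37 ± 0.17 (adjusted p = 0.0626). Fits of those 2 groups alone, voom with quality weights and removal of the length and GC trend did call that second difference, at adjusted p of 0.0496, 0.0407 and 0.00604. Psmb9 shares 212 exon bases with Tap1 on the opposite strand, a gene that also fell in C26-TDCA against CT (-0.58).

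Psmb8 (chr17:34197721-34201454), which replaces Psmb5, was at 12.7 to 18.7 CPM in C26-TDCA (median 15.2), 13.997 to 23.9 CPM in C26 (median 18.5) and 16.2 to 20.9 CPM in CT (median 18.9), and the groups overlapped. In C26 against CT its log2 fold change was -0.06, with an approximate 95% interval of -0.27 to 0.14. The fall of 0.26 in C26-TDCA against CT (adjusted p = 0.0395) was lost when any of 9 libraries was left out (C26-TDCA 02, 03, 04, 05 and 08, and CT 01, 02, 06 and 07). It was also lost with upper-quartile scaling and with the replicate number as a block. Psmb8 shares 498 exon bases with Gm20496, an antisense gene not analysed here. In C26-TDCA against C26 the 3 subunits had log2 fold changes of -0.19 (Psmb8), -0.34 (Psmb9) and -0.21 (Psmb10), with edgeR adjusted p of 0.343, 0.296 and 0.307.

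Set against the subunit each replaces, Psmb9 was at 0.0822 to 0.205 times the CPM of Psmb6 in C26-TDCA (median 0.133), 0.133 to 0.208 in C26 (median 0.156) and 0.167 to 0.295 in CT (median 0.233). The Psmb10 to Psmb7 ratio had medians of 0.380 in C26-TDCA, 0.438 in C26 and 0.461 in CT, and the Psmb8 to Psmb5 ratio 0.572, 0.587 and 0.566 in the same order. All of these ratios overlapped between the groups. Markers of T and NK cells, which carry immunoproteasomes, summed to 0.294 to 0.963 CPM in C26-TDCA, 0.179 to 0.607 CPM in C26 and 0.333 to 2.09 CPM in CT, from the 2 of 6 listed genes that were in the table. Summed B and plasma cell markers ran from 1.85 to 4.25 CPM in C26-TDCA, 2.45 to 5.66 CPM in C26 and 3.78 to 6.13 CPM in CT. In C26 against CT, 0 of 1 T and NK gene tested was called, and 1 of 6 B and plasma cell genes fell. Kupffer cell markers were at 306 to 402 CPM in C26-TDCA and 255 to 381 CPM in C26, against 155 to 186 CPM in CT. Neutrophil and monocyte markers were at 16.3 to 40.1 CPM in C26-TDCA and 18.9 to 46.8 CPM in C26, against 2.26 to 6.35 CPM in CT. The part of these cells in the immunoproteasome values was not tested.

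**Figure D4:**
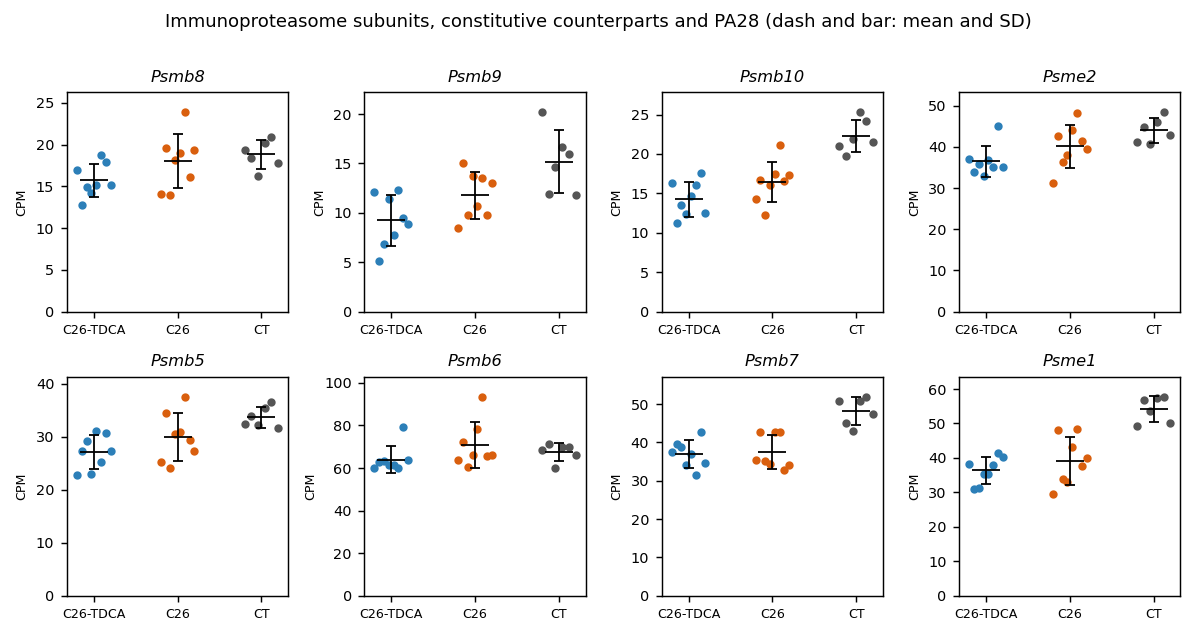
TMM-normalised CPM (axes from 0) of the immunoproteasome subunits above the constitutive subunits they replace, and of Psme2 above Psme1, in C26-TDCA, C26 and CT livers; points are libraries, bars mean and SD. The means of Psmb9 are 9.25 in C26-TDCA, 11.8 in C26 and 15.2 in CT, and those of Psmb6 are 64.0, 70.8 and 67.6 in the same order.

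In the regulatory particle 3 of 17 genes rose, 0 fell and 14 were not called in C26 against CT, with a median log2 fold change of 0.03 on the TMM scale. In C26-TDCA against CT 2 rose and 1 fell, with a median of 0.03. That is 17.6% of the class in each comparison, beside 58.1% of all genes tested in C26 and 57.0% in C26-TDCA. Psmd7 (chr8:107580381-107588464), a lid subunit that partners the deubiquitinase Psmd14, was at 64.6 to 82.6 CPM in C26-TDCA (median 73.7), 64.1 to 83.2 CPM in C26 (median 74.5) and 49.0 to 63.6 CPM in CT (median 53.2). All 16 tumour-bearing livers were above all CT livers. The log2 fold change was 0.44 ± 0.08 in C26 against CT (adjusted p = 2.96e-05) and 0.43 ± 0.08 in C26-TDCA against CT (adjusted p = 4.04e-05). With library totals as the scale these became 0.10 and 0.12 and were not called, in a table whose median gene stood at -0.34 and -0.30.

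Psmc4 (chr7:28041707-28050101), an ATPase of the base, was at 55.1 to 63.6 CPM in C26-TDCA (median 58.5), 54.5 to 75.9 CPM in C26 (median 61.5) and 47.99 to 54.6 CPM in CT (median 50.9). The C26-TDCA livers were all above CT, and the C26 range met the CT range at its lower end. The log2 fold change was 0.31 ± 0.07 in C26 (adjusted p = 0.000255) and 0.21 ± 0.07 in C26-TDCA (adjusted p = 0.00912), both against CT, and with library totals these were -0.03 and -0.10. Psmd13, another lid subunit, averaged 47.8 ± 5.47 CPM in C26-TDCA, 50.2 ± 5.75 CPM in C26 and 42.9 ± 5.10 CPM in CT. Its call in C26 against CT (log2 fold change 0.23, adjusted p = 0.0297; -0.12 with library totals) was lost when the trend of length and GC was removed and when C26 05, C26 06, CT 01, CT 02 or CT 05 was left out. Psmd13 shares 342 exon bases with Sirt3 on the opposite strand, which fell by 0.87.

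Psmd2, a base subunit and a docking site for substrate shuttles, averaged 125 ± 6.72 CPM in C26-TDCA, 135 ± 9.36 CPM in C26 and 140 ± 6.09 CPM in CT. It fell by 0.17 in C26-TDCA against CT (adjusted p = 0.0146), with no overlap between these groups, and the call was lost with upper-quartile scaling. The ubiquitin receptor Psmd4 and the deubiquitinase Psmd14 had log2 fold changes of 0.17 and 0.16 in C26 against CT with edgeR adjusted p of 0.0776 and 0.0633, and both were called with upper-quartile scaling. Psmc1, the ATPase with the lowest log2 fold change of the class (-0.07), was at 72.4 to 94.8 CPM in C26-TDCA (median 79.6), 70.9 to 97.5 CPM in C26 (median 86.3) and 85.6 to 94.2 CPM in CT (median 90.2), and the groups overlapped. Psmc2, Psmc3, Psmc5 and Psmc6 ran from 0.01 to 0.11. Psmd1 of the base and the lid genes Psmd3, Psmd6, Psmd8, Psmd11 and Psmd12 ran from -0.03 to 0.09, none of them called.

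Of the 6 activators and inhibitors 4 fell and 0 rose in C26 against CT, with a median log2 fold change of -0.21, and 5 fell and 0 rose in C26-TDCA against CT, with a median of -0.26. That is 66.7% and 83.3% of the class, beside 58.1% of all genes tested in C26 (29.2% lower) and 57.0% in C26-TDCA (28.2% lower). Psme4 (chr11:30771726-30880361), which encodes PA200, a nuclear cap known for acetylated histones and DNA repair, was at 64.4 to 90.03 CPM in C26-TDCA (median 87.3), 64.3 to 95.4 CPM in C26 (median 75.3) and 95.7 to 121 CPM in CT (median 118). All tumour-bearing livers were below all CT livers. The log2 fold change was -0.57 ± 0.09 in C26 against CT (adjusted p = 4.04e-06), a level 32.6% lower, and -0.41 ± 0.09 in C26-TDCA against CT (adjusted p = 0.000244). In C26-TDCA against C26 it was 0.16 ± 0.08 (adjusted p = 0.34), and C26-TDCA 08 was the one treated liver far below the other treated livers.

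Psme1 (chr14:55578123-55581529), the alpha subunit of PA28, was at 31.0 to 41.4 CPM in C26-TDCA (median 36.7), 29.5 to 48.4 CPM in C26 (median 38.8) and 49.2 to 57.8 CPM in CT (median 55.2), again with no overlap. It fell by 0.47 in C26 (adjusted p = 0.000219) and by 0.57 in C26-TDCA (adjusted p = 1.92e-05), both against CT. Psme2 (chr14:55587441-55591113), the beta subunit encoded beside it, was at 32.9 to 45.0 CPM in C26-TDCA (median 35.6), 31.1 to 48.1 CPM in C26 (median 40.3) and 40.6 to 48.4 CPM in CT (median 43.8), with overlap. It fell by 0.27 in C26-TDCA against CT (adjusted p = 0.00619), and in C26 against CT its log2 fold change was -0.13 (interval -0.29 to 0.03, adjusted p = 0.164). With the length and GC trend removed, edgeR did call that second difference (-0.15, adjusted p = 0.0445). The 2 subunits stand together in 1 ring, and the Psme1 to Psme2 ratio was 0.872 to 1.15 in C26-TDCA (median 0.994), 0.864 to 1.13 in C26 (median 0.962) and 1.17 to 1.32 in CT (median 1.22). All tumour-bearing livers lay below all CT livers on this ratio, which does not depend on the scale. The end of Psme1 shares 14 exon bases with Emc9 on the opposite strand, which fell by 1.03.

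Psme3, the nuclear PA28 gamma, was at 41.5 to 47.4 CPM in C26-TDCA (median 46.1), 42.9 to 53.3 CPM in C26 (median 46.5) and 48.9 to 56.8 CPM in CT (median 53.5). The C26-TDCA livers were all below CT and the C26 livers overlapped with it. It fell by 0.17 in C26 (adjusted p = 0.00912, lost with upper-quartile scaling and with those 2 groups alone) and by 0.23 in C26-TDCA (adjusted p = 0.000805), both against CT. Psmf1, which encodes the inhibitor PI31, was at 19.2 to 25.6 CPM in C26-TDCA (median 21.2), 20.7 to 23.3 CPM in C26 (median 22.1) and 23.3 to 28.0 CPM in CT (median 25.9). The C26 livers were all below CT, by less than 0.1 CPM at the nearest, and C26-TDCA livers overlapped with CT. It fell by 0.23 in C26 (adjusted p = 0.00517) and by 0.25 in C26-TDCA (adjusted p = 0.0023), both against CT. Psme2b, an intronless relative of Psme2, was at 0.384 ± 0.244 CPM in C26-TDCA, 0.255 ± 0.148 CPM in C26 and 0.301 ± 0.155 CPM in CT, near the floor, and reads of Psme2 could be shared with it.

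Of the 7 assembly factors, 4 fell and 0 rose in both comparisons with CT: Psmg1, Psmg3, Psmd5 and Psmd9. That is 57.1% of the class, beside 58.1% of all genes tested in C26 (29.2% lower) and 57.0% in C26-TDCA (28.2% lower). Psmd9 (chr5:123169413-123250131), a chaperone of the base ATPases, was at 14.8 to 27.2 CPM in C26-TDCA (median 18.7), 14.6 to 26.2 CPM in C26 (median 19.4) and 25.1 to 31.8 CPM in CT (median 28.7). The tumour-bearing ranges reached into the lower part of the CT range. It fell by 0.53 in C26 (adjusted p = 0.000651) and by 0.50 in C26-TDCA (adjusted p = 0.00112), both against CT. Psmd9 shares 1849 exon bases with Gm26745, a long non-coding RNA gene not analysed here. Psmd5, also a base chaperone, fell by 0.15 in C26 (adjusted p = 0.0233), a call lost without CT 06 or CT 07, with upper-quartile scaling, with those 2 groups alone and after removal of the trend with length and GC. It fell by 0.23 in C26-TDCA against CT (adjusted p = 0.0012). Psmd10, the third base chaperone measured and known as gankyrin in liver cancer, had log2 fold changes of 0.09 and -0.03 in the same comparisons and was not called.

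Psmg1 and Psmg2 pair to assemble the alpha ring, and Psmg3 and Psmg4 pair to help them. Psmg1 was at 8.03 to 12.6 CPM in C26-TDCA (median 9.77), 10.6 to 13.1 CPM in C26 (median 11.0) and 11.9 to 14.9 CPM in CT (median 13.7), with overlap at the lower end of CT. It fell by 0.27 in C26 (adjusted p = 0.00776) and by 0.46 in C26-TDCA (adjusted p = 4.08e-05), both against CT. Its partner Psmg2 averaged 10.7 ± 1.13 CPM in C26-TDCA, 12.2 ± 0.942 CPM in C26 and 11.9 ± 0.815 CPM in CT, with log2 fold changes of 0.04 in C26 against CT (adjusted p = 0.689) and -0.19 in C26-TDCA against C26 (adjusted p = 0.159). Psmg3 fell by 0.39 in C26 (adjusted p = 0.0275) and by 0.58 in C26-TDCA (adjusted p = 0.00185), both against CT. The call in C26 was lost without C26 01, CT 05 or CT 06, with upper-quartile scaling, with the replicate number as a block and with those 2 groups alone. Psmg4, with the highest log2 fold change of the assembly factors in C26 against CT (0.19, adjusted p = 0.382), was at 3.03 to 5.61 CPM in C26-TDCA (median 4.14), 2.89 to 6.51 CPM in C26 (median 3.99) and 2.69 to 4.56 CPM in CT (median 3.64), and the groups overlapped.

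**Figure D5:**
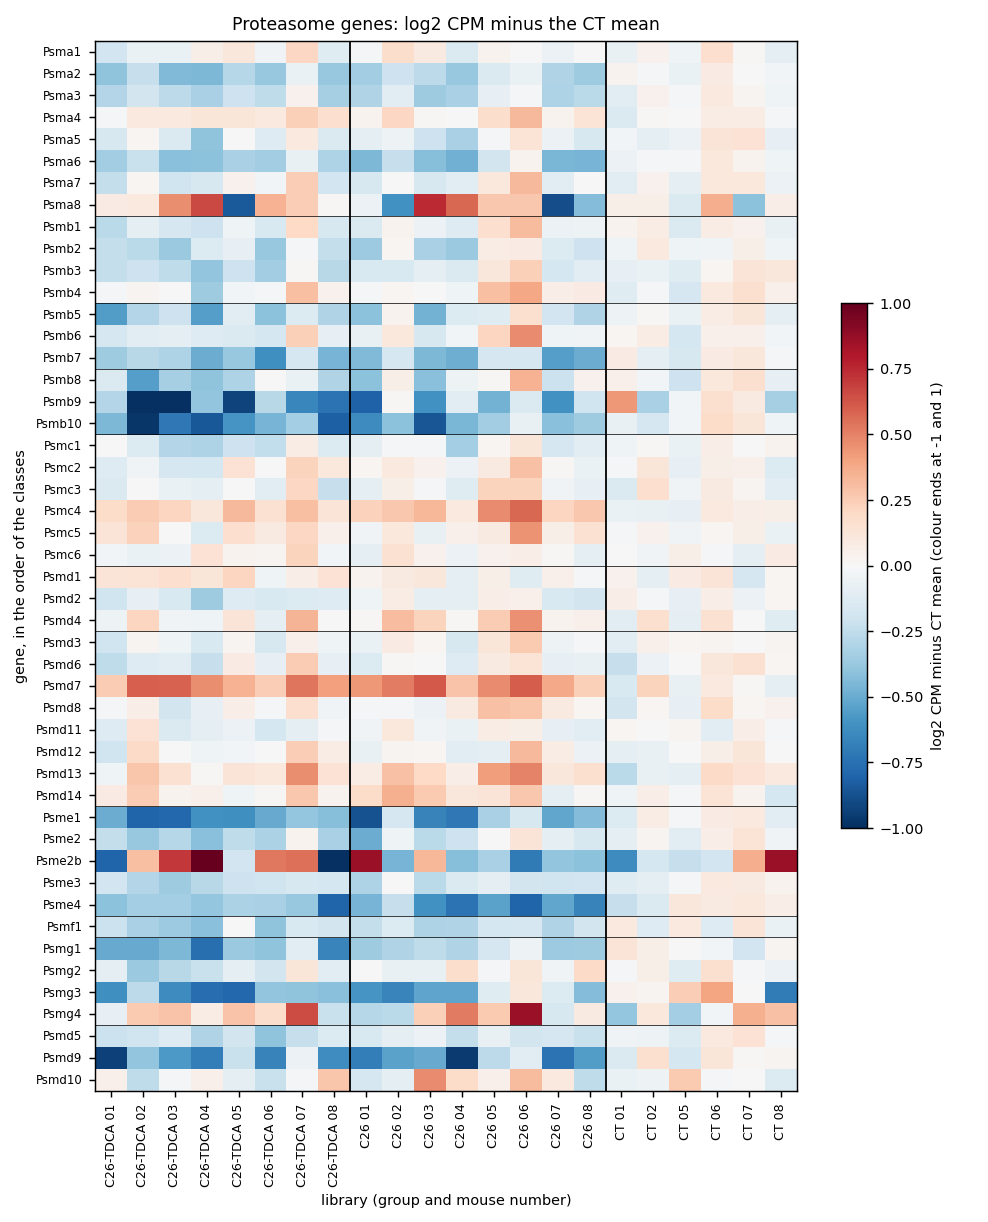
Log2 CPM of the 48 proteasome genes (rows, by class) in the 22 libraries (columns) minus the mean of the CT libraries, red for higher and blue for lower, with the colour ending at -1 and 1. Psmd7 and Psmc4 are red in nearly all tumour-bearing columns, Psme1, Psme4, Psmb10 and Psmd9 are blue, and C26 06 and C26-TDCA 07 are redder than their groups over most rows.

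Within groups, single libraries led for many members at once. C26 06 had the highest level of its group for 30 of the 48 genes and C26-TDCA 07 for 32, while in CT the libraries CT 06 and CT 07 led for 16 genes each. The biological coefficient of variation had a median of 10.3% over the 48 genes, from 7.34% (Psmd5) to 42.0% (Psme2b), against 11.0% over 6195 genes of like level and 15.1% over all genes tested. Without C26 06, 17 of the 48 genes were called in C26 against CT (2 higher and 15 lower), beside 8432 of all 14752 genes tested. Without C26-TDCA 07, 24 were called in C26-TDCA against CT (2 higher and 22 lower), beside 8429 of all 14748 genes tested.

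Other genes of the pathway were read from a list of 47 genes outside the name rule, of which 44 were measured. In C26 against CT livers 13 rose and 18 fell (70.5%), and in C26-TDCA against CT 12 rose and 20 fell (72.7%), beside the 58.1% and 57.0% of all genes tested. Library totals put these splits at 3 higher and 29 lower, and 4 higher and 31 lower, and called 10164 and 9820 of all 14785 genes tested. All 6 listed factors that dock on the proteasome (Usp14, Uchl5, Ube3c, Ecpas, Txnl1 and Zfand5) fell in both comparisons. Of all genes tested, 29.2% fell in C26 and 28.2% in C26-TDCA, both against CT. The 6 also fell with library totals, a scale on which the median gene itself stood at -0.34 and -0.30. Usp14, which trims ubiquitin chains at the 19S base, was at 21.5 to 25.9 CPM in C26-TDCA (median 23.8), 19.7 to 25.9 CPM in C26 (median 23.0) and 31.9 to 36.6 CPM in CT (median 34.3). No tumour-bearing liver reached the CT range, and the log2 fold change was -0.57 ± 0.06 in C26 (adjusted p = 1.46e-08) and -0.51 in C26-TDCA (adjusted p = 8.4e-08), both against CT.

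Proteasome-related genes named outside the rule, Pomp, Adrm1, Sem1 and Akirin2, had log2 fold changes of -0.10 to 0.01 in C26 against CT and were not called. Pomp, the maturation factor of the core, averaged 61.7 ± 9.94 CPM in C26-TDCA, 67.8 ± 10.4 CPM in C26 and 72.7 ± 5.10 CPM in CT. Its fall of 0.24 in C26-TDCA against CT (adjusted p = 0.0491) was lost with no filter, with upper-quartile scaling and with the replicate number as a block. It was also lost without any of 13 libraries (C26 07 and 08, C26-TDCA 01, 02, 03, 04, 06 and 08, and CT 01, 02, 05, 06 and 07). Adrm1, a ubiquitin receptor of the 19S base, fell by 0.18 in that comparison (adjusted p = 0.0341). That call was lost with upper-quartile scaling, with the replicate number as a block and without C26-TDCA 04 or 06 or CT 02, 06, 07 or 08.

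NRF1, encoded by Nfe2l1, is the transcription factor that raises proteasome genes when proteasome capacity is short. Nfe2l1 averaged 133 ± 12.9 CPM in C26-TDCA, 140 ± 3.54 CPM in C26 and 114 ± 7.45 CPM in CT. On the TMM scale its log2 fold change was 0.30 in C26 (adjusted p = 0.000215) and 0.23 in C26-TDCA (adjusted p = 0.00342), both against CT, and with library totals -0.04 and -0.08, not called. Removal of the length and GC trend also ended both calls. Nfe2l2, which encodes the related NRF2, averaged 31.6 ± 2.36 CPM in C26-TDCA, 31.9 ± 2.84 CPM in C26 and 59.3 ± 4.16 CPM in CT, and fell by 0.90 in C26 against CT (adjusted p = 3.03e-11) with no overlap. Among 4 ubiquitin precursors 2 rose and 0 fell in C26 against CT, where 28.9% of all genes tested rose and 29.2% fell. Of these Ubb was at 366.9 to 435.1 CPM in C26-TDCA and 369.5 to 539.7 CPM in C26, against 244.6 to 270.7 CPM in CT, a log2 fold change of 0.71 in C26 against CT (adjusted p = 1.83e-08; 0.37 with library totals).

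Of the 7 listed regulators of the interferon-gamma response, 4 rose and 1 fell in C26 against CT, where 28.9% of all genes tested rose and 29.2% fell. Irf1, a factor known to drive immunoproteasome genes, averaged 32.4 ± 3.64 CPM in C26-TDCA, 32.5 ± 2.64 CPM in C26 and 31.9 ± 6.95 CPM in CT, with a log2 fold change of 0.03 in C26 against CT on the TMM scale (adjusted p = 0.818) and -0.31 with library totals (adjusted p = 0.00775). Irf8, an interferon regulatory factor of myeloid cells, rose by 0.98 there (adjusted p = 2.59e-07), beside the Kupffer cell and monocyte markers whose part in it was not tested. The receptor-associated kinase Jak1 rose by 0.60 in C26-TDCA (adjusted p = 2.33e-08) and by 0.46 in C26 (adjusted p = 1.33e-06), both against CT, and the call in C26 was lost with library totals.

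Of the 6 genes on the path of peptides to MHC class I, 2 rose and 2 fell in C26 against CT (66.7%, beside 58.1% of all genes tested). Tap1, a subunit of the peptide transporter, averaged 20.99 ± 3.96 CPM in C26-TDCA, 27.4 ± 2.18 CPM in C26 and 31.4 ± 5.61 CPM in CT. Its log2 fold change was -0.19 in C26 against CT (adjusted p = 0.145) and -0.39 ± 0.10 in C26-TDCA against C26 (adjusted p = 0.0535). DESeq2 called the second difference, at an adjusted p of 0.0171. In C26-TDCA against C26 livers edgeR called 1 of the 44 genes (2.27%), beside 1.97% of all genes tested. It was Uba6, an activating enzyme of ubiquitin and of FAT10, at 9.52 ± 1.17 CPM in C26-TDCA, 7.14 ± 1.37 CPM in C26 and 9.83 ± 1.03 CPM in CT, with a log2 fold change of 0.41 ± 0.11 (adjusted p = 0.0464). The call was lost with upper-quartile scaling, with the replicate number as a block, with those 2 groups alone and after removal of the trend with length and GC. It was also lost without any of 16 libraries (C26 04 to 08, C26-TDCA 02 to 07, and CT 02, 05, 06, 07 and 08).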

How the data were processed

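Messenger RNA from frozen liver of separate mice was sequenced, and the deposited values are raw counts per gene for 22 libraries. The submitters' processing notes name bcl2fastq 2.17, FastQC, Trimmomatic 0.40, HISAT2 2.2.1, featureCounts 2.0.3, DESeq2 1.42.0 and GRCm38; the annotation release and the strand setting are not stated in the sources used here. Symbols, coordinates and transcript lengths came from GENCODE M21 (GRCm38). Genes were filtered with filterByExpr at a minimum count of 10 (14785 kept, 663 removed), scaled by TMM and tested with edgeR 4.0.16 by quasi-likelihood F tests over all 22 libraries. Benjamini-Hochberg adjustment covered all genes tested, with a threshold of 0.05. Standard errors were taken from the size of each log2 fold change and its F value, so they and the 95% intervals are approximate. Alternatives used DESeq2 1.42.0, limma 3.58.1 voom with quality weights, other scalings, no filter, a replicate block, a loess of span 0.3 against length and GC content, only the 2 groups compared, and each library left out.

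The members, lists and tests were chosen with earlier results of these data known. Scaling by library totals, lengths of principal transcripts, class ratios and counts of leading libraries were added after values were seen. Library values are given for immunoproteasome subunits and their counterparts, for the 10 called members with the smallest p in each comparison and for the extremes of each class. Of the pathway list, values are given for the 4 called genes with the smallest p in each comparison and for Pomp, Adrm1, Nfe2l1, Irf1 and Tap1; values given for other genes were chosen after they were seen. A gene that this rule names is not reported here. No 2 libraries of a group agreed within sampling noise (chi-square per degree of freedom 10.99 or more). Floors of 3 counts cover counting error only, while the 95% intervals include the spread between libraries.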

Additional observations from a re-analysis of the deposited data

Results flagged for a closer look

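In 13 of 147 sets of values (49 genes in 3 groups), the highest or lowest library stood apart from the rest of its group by Dixon's criterion, which chance meets in about 1 set in 20. C26-TDCA 07 was the high library for 5 genes of the core and PA28. It had 89.6 CPM of Psma3, where the other C26-TDCA livers had 69.1 to 76.7 CPM. It had 103.7 CPM of Psmb1 (others 74.9 to 87.7 CPM), 53.9 CPM of Psmb3 (others 40.5 to 46.2 CPM), 79.4 CPM of Psmb6 (others 59.8 to 63.7 CPM) and 44.98 CPM of Psme2 (others 32.9 to 37.1 CPM). C26 06 was the high library for 3 genes of the regulatory particle, with 72.1 CPM of Psmc2 (other C26 livers 56.2 to 63.0 CPM), 59.03 CPM of Psmc5 (others 40.9 to 47.97 CPM) and 70.3 CPM of Psmd12 (others 52.2 to 59.1 CPM).

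The other 5 were single genes in other libraries. Psmd2 was lowest in C26-TDCA 04, at 109.5 CPM, where the other livers of its group had 121.9 to 131.7 CPM. Psme4 was lowest in C26-TDCA 08, at 64.4 CPM (others 84.4 to 90.03 CPM), and Psmd11 highest in C26-TDCA 02, at 75.6 CPM (others 60.4 to 67.4 CPM). In CT, Psmd3 was lowest in CT 01, at 65.7 CPM (others 71.3 to 73.8 CPM), and Psmd10 highest in CT 05, at 8.44 CPM (others 6.40 to 7.08 CPM).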

How the results depend on the processing

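The number of proteasome genes called was 16 in C26 against CT, 0 in C26-TDCA against C26 and 22 in C26-TDCA against CT. With DESeq2, its size factors, no filter, the length and GC trend removed, only the 2 groups compared, upper-quartile scaling or voom it stayed within 1.5 times these, at 16 to 22, 0 and 22 to 24. Library totals raised it to 42 and 42 in the comparisons with CT, and left 0 in C26-TDCA against C26. They called 10164 and 9820 of all 14785 genes tested in the comparisons with CT. Leaving out 1 library gave 14 to 17, 0 to 0 and 20 to 24. In the pathway list 31, 1 and 32 genes were called, and 29 to 32, 0 to 2 and 29 to 32 with 1 library left out; in C26-TDCA against C26, DESeq2 called 2, and upper-quartile scaling, the 2 groups alone and the trend removed called 0; the cause was not tested. Whether the numbers in the labels pair the samples was not settled. Same-numbered libraries correlated in their deviations at -0.075 to 0.048 in C26 and CT, -0.204 to 0.337 in C26-TDCA and C26, and -0.0055 to 0.126 in C26-TDCA and CT. Differently numbered libraries were not compared, so these values cannot show whether samples were paired. The replicate block gave 16, 0 and 20 proteasome and 29, 1 and 29 pathway genes. It ended the calls of Psmg3 in C26 against CT (adjusted p = 0.0667), of Psmb2 (0.0643), Psmb8 (0.0768), Pomp (0.0918) and Adrm1 (0.0724) in C26-TDCA against CT and of Uba6 in C26-TDCA against C26 (0.0610), and it called Psmd4 in C26 against CT (0.20, adjusted p = 0.0368) and Tap1 in C26-TDCA against C26 (-0.40, adjusted p = 0.0360). Library totals, whose median gene is itself below 0, turned these log2 fold changes in C26 against CT: Psma1 -0.33, Psma4 -0.23, Psmb1 -0.33, Psmb4 -0.24, Psmb6 -0.28, Psmc2 -0.29, Psmc3 -0.33, Psmc4 -0.031, Psmc5 -0.24, Psmc6 -0.33, Psmd1 -0.33, Psmd3 -0.32, Psmd4 -0.17, Psmd8 -0.26, Psmd10 -0.26, Psmd12 -0.33, Psmd13 -0.12, Psmd14 -0.19, Psmg2 -0.30, Adrm1 -0.33, Nfe2l1 -0.039 and Irf1 -0.31. In C26-TDCA against CT they turned Psma4 -0.19, Psmc2 -0.31, Psmc4 -0.10, Psmc5 -0.21, Psmc6 -0.27, Psmd1 -0.19, Psmd4 -0.25, Psmd12 -0.28, Psmd14 -0.22, Nfe2l1 -0.080 and Irf1 -0.29. Removal of the length and GC trend turned Psmd3 -0.17 and Adrm1 -0.21 in C26 against CT; the cause was not tested. Of the called members, Psma6, Psmb7, Psmb10, Psme1, Psme4, Psmf1, Psmg1 and Psmd9 were called in both comparisons with CT under all 9 alternatives and without any 1 library. Levels per kb depend on the transcript chosen: against the longest transcript, the union of exons moved 41 of 49 genes by more than the replicate SD and the principal transcript 18. Genes near 3 counts, Psme2b and Psmc3ip, are limited by depth.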
